A study of Mus musculus with 2 samples.

Results

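Mast cells, basophils and eosinophils are granulocytes that store preformed proteins and amines in cytoplasmic granules, and their granule genes were read here through 9 members: Prg2, Epx, Cpa3, Cma1, Prss34, Tpsb2, Hdc, Fcer1a and Mcpt8. Every non-control probe that the array names after a member, or whose transcript accession belongs to one, was taken. That gave 10 of 55680 probes, and 9 of 34786 genes or transcripts, with both Tpsb2 probes counted and 1 probe for each of the other 8 genes. The study sorted LSK cells, the bone marrow fraction without lineage markers and with Sca-1 and c-Kit on its surface, in which stem cells and early progenitors of blood are found, from C57BL/6 mice carrying a transplanted myelodysplastic syndrome (MDS). In the DAC group, secondary recipients had been treated with decitabine, a cytosine analogue that blocks DNA methyltransferases. In the PBS group, they had received phosphate-buffered saline. The sample labels give 7 weeks for both treatments, read here as time after treatment, without saying from which point of the treatment it counts. All cells carried the genotype Tet2KD/KD; Ezh2delta/delta and were taken 10 weeks after transplantation, so the PBS controls shared both altered alleles. Each group is 1 array, and the labels do not state how many mice stood behind it.

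Granule proteins are made early, while a granulocyte is still maturing from its progenitor, so their transcripts can be read in bone marrow progenitor fractions. Mast cell granules hold chymases, tryptases and carboxypeptidase A together with histamine, eosinophil granules hold strongly basic proteins and a peroxidase, and basophils in the mouse carry serine proteases of their own. The high-affinity receptor for IgE triggers release of granule content from mast cells and basophils. Within the stem and progenitor compartment, GATA factors and C/EBP factors direct cells towards these fates.

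The probes are designed 60-base oligonucleotides on the array, with positions on the mouse build mm9. Those of Prg2 and Epx (eosinophil granules), Cma1 and Mcpt8 (serine proteases of 1 locus) and the upstream probe of Tpsb2 (a tryptase with a second probe) are shown. The probes of Cpa3, Prss34, Hdc and Fcer1a are not shown, nor is the downstream probe of Tpsb2, which stands for that gene.
Prg2 (chr2:84822799-84822858, plus strand): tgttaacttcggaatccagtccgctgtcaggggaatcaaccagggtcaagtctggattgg
Epx (chr11:87678288-87678347, minus strand): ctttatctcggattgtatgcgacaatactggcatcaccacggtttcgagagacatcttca
Cma1 (chr14:56561491-56562550, minus strand): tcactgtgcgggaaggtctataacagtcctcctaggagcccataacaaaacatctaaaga
Mcpt8 (chr14:56702300-56702674, minus strand): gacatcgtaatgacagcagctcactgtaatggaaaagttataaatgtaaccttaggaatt
Tpsb2 (chr17:25504493-25504552, plus strand): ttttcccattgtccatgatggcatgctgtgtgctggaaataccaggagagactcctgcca
The Cma1 and Mcpt8 probes span 1060 and 375 bases of genome, more than their 60 bases, so each crosses a splice junction. For the remaining probes the span equals the probe length. Across all 45 pairs of member probes the longest shared run was 7 bases. The files do not say which probes lie in coding sequence.

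Members went in both directions. Of the 9, 8 were measured, that is, well above background on both arrays. On the DAC array 3 of these (Tpsb2, Hdc and Epx) were higher by 2-fold or more, 4 (Prg2, Prss34, Cma1 and Cpa3) were lower by as much, and Mcpt8 lay within 2-fold. Fcer1a was well above background on the PBS array only. Over all 18211 measured genes, 10.0% were higher by 2-fold or more, 6.84% lower by as much and 16.9% past 2-fold in either direction. These genes were picked with earlier results of the same arrays known, so the count describes them and does not set them apart from other genes. The median log2 difference of the measured members was −0.34, or −1.04 with Fcer1a at its bound, against 0.02 for all measured genes. A log2 difference is always DAC minus PBS after each array was scaled to its 75th percentile, and 2-fold corresponds to 1 on this scale. With 1 array per group there was no replicate and no test.

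Depth and comparability set what could be read. Probes well above background numbered 31601 (56.8%) on the DAC array against 27007 (48.5%) on the PBS array, with 0 saturated spots. The value that scaling set to a common level was an intensity of 813 on the DAC array against 618 on the PBS array. Each member probe was printed once per array, so the error given with an intensity is the scanner software's own estimate for that spot. Probes printed repeatedly gave an SD of a log2 difference of 0.30 in the dimmest of 3 signal classes, 0.14 in the next and 0.09 in the brightest. This SD comes from the spread of spots within each array. It leaves out differences between arrays in labelling, hybridisation and scanning, as well as animals, sorting and amplification. In sorted bulk cells, fewer cells of a type and less RNA per cell cannot be told apart.

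**Figure D1:**
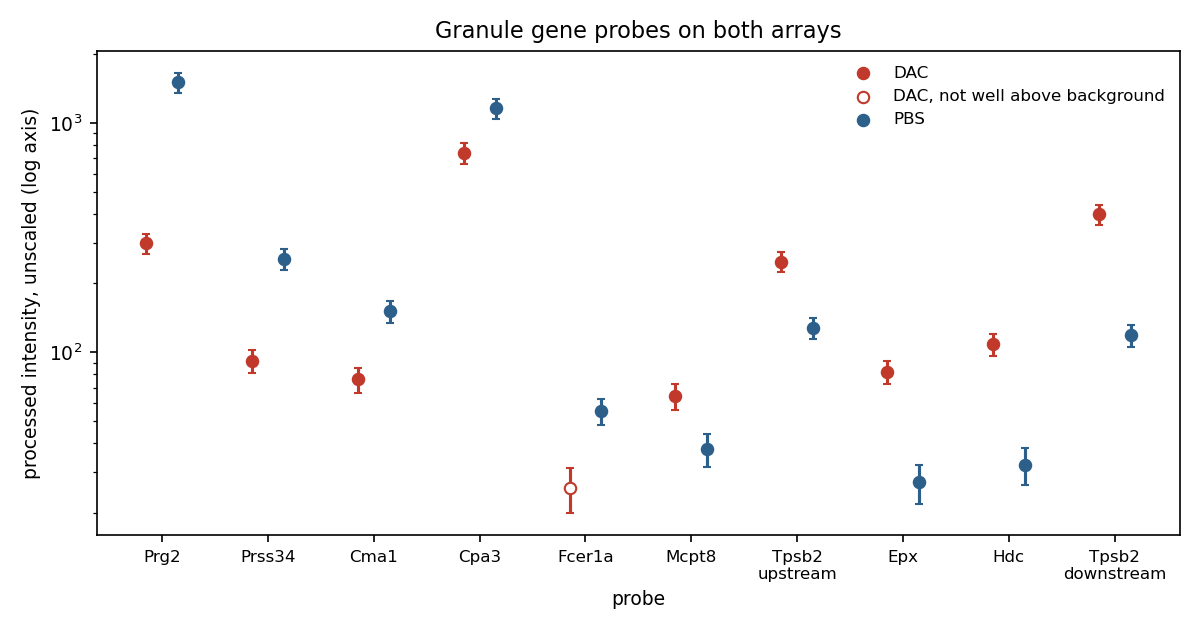
Processed intensity (log axis, background-subtracted, not scaled between arrays) of each granule gene probe on the DAC and PBS arrays, with the scanner software's error of each spot as bars. Prg2 read 299 on the DAC array against 1502 on the PBS array, and the open circle marks Fcer1a on the DAC array, where it was not well above background.

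Among eosinophil granule proteins, Prg2 and Epx lay on opposite sides. Prg2 (NM_008920) encodes major basic protein, the toxic protein that fills the crystalline core of the eosinophil granule. Its processed intensity was 299 ± 30.3 on the DAC array against 1502 ± 150.3 on the PBS array. For this probe the DAC array was the dimmer, although over all probes it was the brighter. After scaling, Prg2 was 6.62-fold lower on the DAC array, with a log2 difference of −2.73, and stood 76th from the lowest of 18211 measured genes. Genes in its signal quartile, the third from the dimmest, were past 2-fold in 15.5% of cases.

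Epx (NM_007946) encodes eosinophil peroxidase, which forms hypohalous acids from hydrogen peroxide. It read 82.1 ± 9.57 on the DAC array against 27.1 ± 5.23 on the PBS array, which was the lowest intensity of any measured member on either array. The log2 difference was 1.20, or 2.30-fold higher. It lay in the dimmest quartile of measured genes, where 20.9% were past 2-fold. The log2 difference of Epx exceeded that of Prg2 by 3.93, a quantity that no constant scaling of an array can change. With normexp background correction, a model-based subtraction of local background that then adds 50, Epx fell short of 2-fold at 0.33. With no background subtraction it had 0.30. One setting adds a constant and the other keeps the background, and either by itself makes log2 differences of dim probes smaller. Prg2 kept −2.51 and −2.50 under the same settings.

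Granule proteases numbered 5 among the members. Prss34 (NM_178372; chr17:25436942-25437001), a tryptase-like protease made by basophils in the mouse, read 91.8 ± 10.6 on the DAC array against 255 ± 25.9 on the PBS array. It was 3.66-fold lower, with a log2 difference of −1.87. Cma1 (NM_010780), which encodes a chymase-family protease of mouse mast cell granules, read 76.1 ± 9.58 on the DAC array against 151 ± 16.0 on the PBS array. Its difference was −1.38, or 2.61-fold lower. Both genes lay in the second dimmest quartile, where 26.8% of genes were past 2-fold.

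Cpa3 (NM_007753; chr3:20115674-20115733) encodes mast cell carboxypeptidase A, which trims the C terminus of peptides and is also made in early mast cell and basophil progenitors. It read 739 ± 74.0 on the DAC array against 1157 ± 116 on the PBS array. The difference of −1.04, or 2.06-fold lower, lies just past the 2-fold line. Cpa3 stood in the brightest quartile, near its lower edge, and 4.15% of genes in that quartile were past 2-fold. Under normexp correction and with no background subtraction, Cma1 had differences of −0.91 and −0.94 and Cpa3 −0.94 under both, so neither was then past 2-fold. Prss34 stayed past it, at −1.36 and −1.39.

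Tpsb2 (NM_010781), a tryptase that forms heparin-bound tetramers in mast cell granules, was the protease on the higher side. Its downstream probe (chr17:25504819-25504878) read 399.8 ± 40.3 on the DAC array against 119 ± 12.9 on the PBS array, a difference of 1.36 or 2.56-fold. Its upstream probe, whose sequence is given above, read 248 ± 25.5 on the DAC array against 128 ± 13.9 on the PBS array, a difference of 0.56 or 1.48-fold. Both probes were higher on the DAC array, by unequal amounts, and their mean difference of 0.96 was short of 2-fold. The brighter downstream probe stood for the gene. Tpsab1, its close paralogue, was not well above background on either array.

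Mcpt8 (NM_008572), a granzyme-like protease used as a marker of mouse basophils, read 64.4 ± 8.44 on the DAC array against 37.8 ± 6.08 on the PBS array. Its difference of 0.37 was little above the SD of 0.30 from repeated spots at low signal. It changed sign across settings, with values from −0.08 to 0.37. Prss34 and Mcpt8, both basophil proteases, therefore had unequal differences, −1.87 and 0.37.

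The proteases sit in gene clusters, which allows neighbours to be set side by side. In the tryptase cluster on chromosome 17, 67491 bases separate the Prss34 probe from the nearest Tpsb2 probe. The difference of Tpsb2 exceeded that of Prss34 by 3.23, and by 2.32 to 3.29 under the alternatives. Between them, Prss28 had a difference of 0.24 and the measured probe of Prss29 one of −0.11, and Tpsab1 was not well above background on either array. Beyond Tpsb2, Tpsg1, a membrane-anchored tryptase gene, was detected with DAC only, with a bound of 1.04-fold.

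In the chymase cluster on chromosome 14, 139749 bases separate the Cma1 and Mcpt8 probes. Along it Cma2 had a difference of 0.63 and Mcpt4, another mast cell chymase gene, one of 0.35. Ctsg, the cathepsin G gene of neutrophil and mast cell granules, had one of −0.37. Mcpt1, Mcpt2 and Mcpt9 were not well above background on either array. From Cma1 to Ctsg, Cma1 was the named gene past 2-fold, and 2 probes without a gene name there had −1.65 and −1.33. These neighbours were chosen by position, after their values had been seen.

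Histamine synthesis is represented by Hdc (NM_008230; chr2:126419516-126419575), whose product, histidine decarboxylase, makes histamine from histidine. It read 108 ± 12.1 on the DAC array against 32.2 ± 5.87 on the PBS array, a difference of 1.35 or 2.55-fold higher. It belonged to the dimmest quartile, and normexp correction and no background subtraction gave 0.51 and 0.46.

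Fcer1a (NM_010184; chr1:175151438-175151497) encodes the IgE-binding alpha chain of the high-affinity receptor. It read 25.7 ± 5.74 on the DAC array, not well above background, against 55.6 ± 7.21 on the PBS array. It was 2.85-fold lower on the DAC array, a difference of −1.51. Its own DAC signal exceeded the lowest one of any probe well above background and so set the bound. For Fcer1a the bound is therefore this difference itself and not a minimum. Of 977 genes well above background on the PBS array only, 54.2% had a bound of at least 2-fold, and the DAC counterpart was 38.3% of 3282 genes. With normexp correction the bound of Fcer1a was 1.72-fold. The gamma chain Fcer1g, shared with other Fc receptors, was 1.01 higher, and the beta chain Ms4a2 was not well above background on either array.

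**Figure D2:**
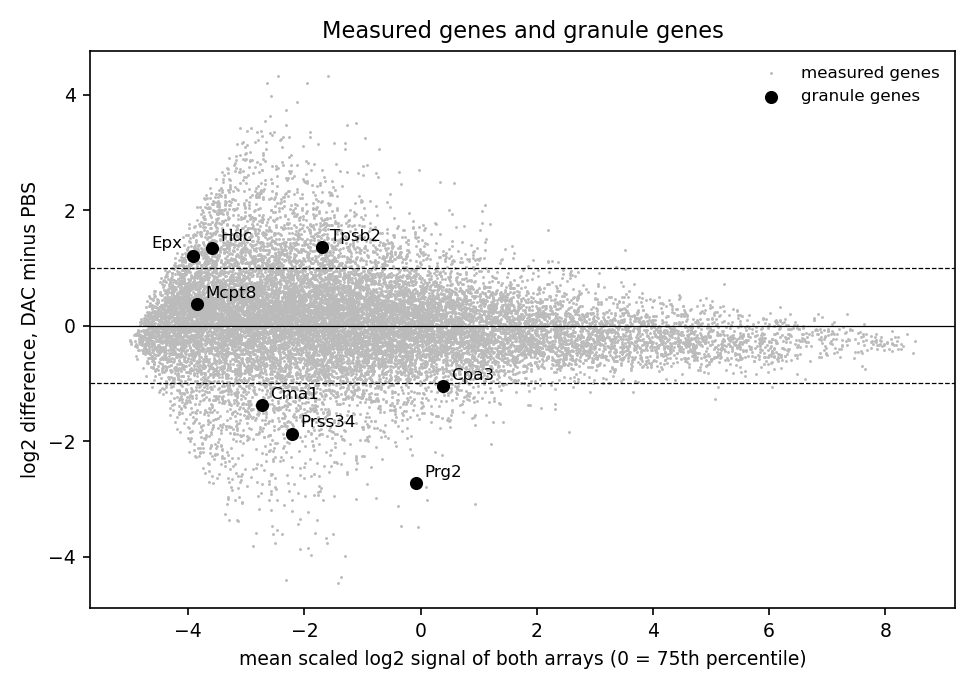
Log2 difference (DAC minus PBS) against mean scaled log2 signal for 18211 measured genes in grey and the 8 measured granule genes in black, with dashed lines at 2-fold. Prg2 at −2.73 lies in the third signal quartile from the dimmest, where 15.5% of genes are past 2-fold against 16.9% of all. Cpa3 at −1.04 lies near the lower edge of the brightest, where 4.15% are, and Epx, Hdc and Mcpt8 lie in the dim part.

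Directions held under most settings, while the calls at 2-fold did not. Prg2, Prss34, Cma1 and Cpa3 were lower and Epx, Hdc and Tpsb2 higher on the DAC array under all 10 alternatives. Of these, both filter settings and the mean over probes leave genes with 1 probe unchanged by construction. The series matrix values nearly repeat scaling over all probes, with −2.93 for Prg2 under both, and constant scaling shifts all genes alike. Prg2 ranged from −2.93 to −2.50 and Prss34 from −2.10 to −1.36, both past 2-fold throughout. Cma1 ranged from −1.68 to −0.91, Cpa3 from −1.25 to −0.94, Tpsb2 from 0.96 to 1.36, Hdc from 0.46 to 1.35 and Epx from 0.30 to 1.20. With normexp correction or no background subtraction, 0 members were higher by 2-fold or more and 2 lower by as much. Over all 18211 measured genes, normexp correction left 721 higher and 752 lower at 2-fold, and no background subtraction 717 and 735.

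**Figure D3:**
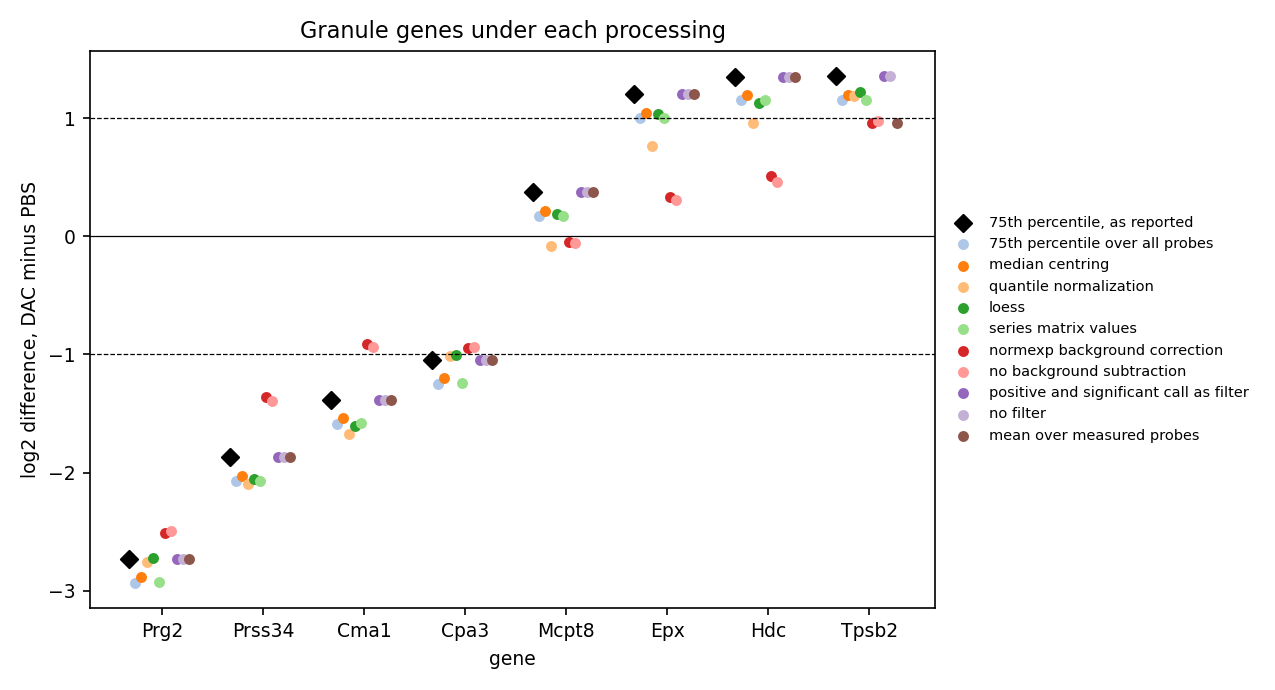
Log2 difference (DAC minus PBS) of each measured granule gene under the reported processing (black diamonds) and 10 alternatives (coloured circles), with dashed lines at 2-fold. Prg2 and Prss34 stay below −1 throughout, and the background settings bring Epx and Hdc to between 0.30 and 0.51.

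Other genes of these cells were read from 95 genes in 9 lists, of which 94 were on the array and 67 measured. Of these, 7 were higher by 2-fold or more, 6 lower by as much and 54 between, with a median of 0.04. That is 10.4% higher, 8.96% lower and 19.4% past 2-fold either way, near the 16.9% of all measured genes past 2-fold. Of the 17 with several measured probes, 10 had probes in both directions, and the brightest was used. Another 7 were detected with DAC only, 2 with PBS only and 18 on neither array. The lists were written with earlier results of these arrays known.

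The eosinophil list, which leaves out the members Prg2 (−2.73) and Epx (1.20), had a negative median. Of 9 on the array 6 were measured, with a median of −0.67, or −0.82 with genes on 1 array only at their bound. Of the 6, 0 were at least 2-fold higher and 1 lower, where all measured genes had 10.0% and 6.84%. The lower gene was Ear1 (−1.79), which encodes a ribonuclease of the eosinophil granule. Its relative Ear6 was detected with PBS only, so that it was lower after DAC by at least 3.89-fold. Siglecf, a surface lectin of eosinophils, had a difference of −0.98 with both probes lower, and Prg3, the homologue of Prg2, one of −0.42. The interleukin-5 receptor gene Il5ra had 0.04 and the eotaxin receptor gene Ccr3 0.01. The Ear genes are close relatives, and whether their probes tell them apart was not tested.

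Shares over all measured genes, for the counts that follow, were 10.0% higher, 6.84% lower and 16.9% past 2-fold either way. Among other granule proteases and their activators, 0 of 7 measured genes were at least 2-fold higher and 1 was lower. The lower gene was Gzmb (−1.47), which encodes the cytotoxic protease granzyme B. For granule storage and amines, 0 of 8 measured genes were past 2-fold either way, and Srgn, the proteoglycan core that holds granule proteases, had a difference of −0.02. Ndst2, a sulfotransferase needed for mast cell heparin, was detected with DAC only, higher by at least 6.08-fold. Eicosanoid genes had 0 of 4 measured members past 2-fold, with −0.63 for Alox5ap, which serves leukotriene synthesis. In granule release, 1 of 9 was past 2-fold, the vesicle-docking GTPase gene Rab27a (1.47), and the SNARE gene Snap23 had −0.67 on its brightest probe, with −0.21 and 2.42 on its dimmer probes.

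Receptors had 1 of 8 measured genes at least 2-fold higher, Fcer1g (1.01), and 0 lower, where all measured genes had 10.0% and 6.84%. Kit, the receptor for stem cell factor, had 0.12. Under scaling to the 75th percentile of all probes Fcer1g had 0.81 and Kit −0.08. Signalling genes below the IgE receptor had 2 of 10 higher, the kinase gene Fyn (1.30) and the adaptor gene Lat (1.26), and 1 lower, the kinase gene Lyn (−1.56). The adaptor gene Lat2 had −0.22. Of the cytokine genes, 2 of 8 were measured: Ccl3 was higher (1.81) and Ccl4 had −0.06.

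Transcription factors had 2 of 13 measured genes at least 2-fold higher and 3 lower, where all measured genes had 10.0% and 6.84%. Gata2, needed for mast cell and basophil progenitors, had 1.17, and Cebpa, needed for granulocyte progenitors, had 1.26. Lower were Gata1 (−2.02), which drives eosinophil and mast cell as well as erythroid genes, the bHLH inhibitor Id1 (−2.11) and the mast cell factor Mitf (−1.04). Gata2 kept its direction under every alternative, with 0.97 at its lowest, and Gata1 lay between −2.23 and −1.75. Stat5b, the brightest of the list, had −0.02.

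**Figure D4:**
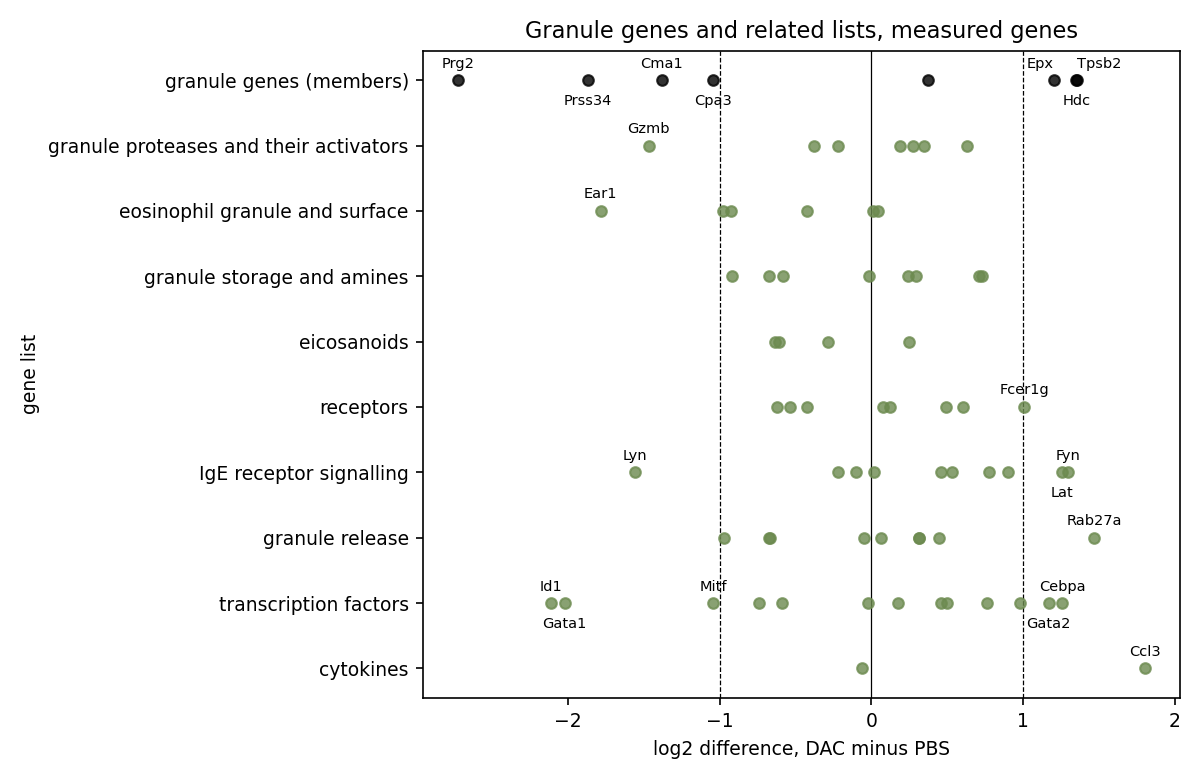
Log2 difference (DAC minus PBS) of measured granule genes (black, top) and of measured genes in 9 related lists (green), with dashed lines at 2-fold and names for genes past it. The granule genes have 7 of 8 points outside the lines and the related lists 13 of 67, where all measured genes have 16.9%. With normexp correction 2 granule genes remain past 2-fold, where 721 of 18211 measured genes were higher and 752 lower. With no background subtraction 2 also remain, where 717 were higher and 735 lower.

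GATA sites were looked for upstream of the members after the differences of Gata1 and Gata2 had been seen. The search covered AGATAA together with AGATAG, as well as TGATAA together with TGATAG, on both strands in the 250 bases before the start of each gene in RefSeq, build GRCm38.p6. Promoters of 7 members were matched, and 5 held the motif: Cpa3, Prss34, Cma1, Fcer1a and Hdc. Prg2 (−2.73) and Tpsb2 (1.36), the lowest and the highest of the measured members, had no promoter to search. Epx and Mcpt8 held none. Of all 32851 promoters 26.5% held it. Those of Cpa3, Prss34, Cma1 and Fcer1a, lower on the DAC array, and that of Epx, higher there, are shown with the match in capitals.
Cpa3 (chr3:20242182-20242431, minus strand): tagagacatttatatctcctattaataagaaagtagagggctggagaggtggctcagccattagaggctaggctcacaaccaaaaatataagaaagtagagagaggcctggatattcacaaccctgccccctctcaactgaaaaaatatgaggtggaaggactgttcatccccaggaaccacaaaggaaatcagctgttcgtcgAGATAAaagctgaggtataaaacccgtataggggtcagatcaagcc
Prss34 (chr17:25298144-25298393, plus strand): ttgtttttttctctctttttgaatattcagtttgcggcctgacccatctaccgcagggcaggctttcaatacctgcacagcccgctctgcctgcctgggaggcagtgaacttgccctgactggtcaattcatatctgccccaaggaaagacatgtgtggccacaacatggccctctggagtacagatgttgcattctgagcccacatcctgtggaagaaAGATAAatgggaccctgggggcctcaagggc
Cma1 (chr14:55944676-55944925, minus strand): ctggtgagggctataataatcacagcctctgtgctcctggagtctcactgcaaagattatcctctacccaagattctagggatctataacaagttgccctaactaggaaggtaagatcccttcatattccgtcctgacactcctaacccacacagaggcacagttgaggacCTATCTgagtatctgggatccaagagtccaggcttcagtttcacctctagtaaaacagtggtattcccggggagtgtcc
Fcer1a (chr1:173227230-173227479, minus strand): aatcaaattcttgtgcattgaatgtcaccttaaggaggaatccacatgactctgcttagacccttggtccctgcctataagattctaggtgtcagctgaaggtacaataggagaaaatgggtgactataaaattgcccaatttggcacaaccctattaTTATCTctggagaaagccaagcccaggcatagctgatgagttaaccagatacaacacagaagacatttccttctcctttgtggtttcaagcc
Epx (chr11:87875537-87875786, minus strand): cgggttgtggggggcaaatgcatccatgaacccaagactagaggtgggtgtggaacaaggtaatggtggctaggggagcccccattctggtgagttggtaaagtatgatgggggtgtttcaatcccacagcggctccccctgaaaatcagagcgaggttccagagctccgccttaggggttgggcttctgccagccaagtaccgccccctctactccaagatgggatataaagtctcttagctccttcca
The match begins 46 bases before the start in Cpa3 and 31 bases before it in Prss34, on the strand of the gene. In Cma1 and Fcer1a it lies on the opposite strand, beginning 79 and 92 bases before the start. Hdc, higher on the DAC array, has its match 221 bases before the start. A match is a run of letters and not a measured site. Whether GATA factors bear on the member differences was not tested, and the members were chosen with earlier results known.

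Markers of the sorted gate and of other cells were read beside these values. Summed signal is in multiples of each array's 75th percentile. The LSK gate list summed to 24.7 on the DAC array against 24.9 on the PBS array, with Ly6a (Sca-1) at 0.07 and Kit at 0.12. The eosinophil list, with Prg2 its brightest member on the PBS array, summed to 0.99 on the DAC array against 3.38 on the PBS array, and without Prg2 to 0.62 with DAC and 0.95 with PBS. Basophil markers summed to 0.24 on the DAC array against 0.58 on the PBS array, and without Prss34 to 0.12 with DAC and 0.17 with PBS. Of the genes left without Prss34, Mcpt8 was measured, with a difference of 0.37, and Fcer1a was well above background on the PBS array only. Cd200r3 and Ms4a2 were not well above background on either array. Mast cell markers summed to 8.03 on the DAC array against 8.36 on the PBS array, most of it Kit, and without Kit to 1.78 with DAC and 2.62 with PBS. Of 5 measured mast cell markers 1 was at least 2-fold higher (Tpsb2) and 2 lower (Cma1 and Cpa3), and the median with Fcer1a at its bound was −0.46. Neutrophil markers summed to 31.3 on the DAC array against 30.4 on the PBS array, and 2 of 10 were at least 2-fold higher and 2 lower. Monocyte and macrophage markers summed to 7.18 on the DAC array against 7.01 on the PBS array, and T and NK cell markers to 7.58 with DAC and 7.82 with PBS. Most of the T and NK cell sum was Nkg7. In that list Cd3d was well above background with PBS only, Klrd1 with DAC only and Cd3g on neither array. Erythroid markers summed to 1.76 with DAC and 1.41 with PBS, and without Car1 to 0.97 with DAC and 1.19 with PBS. Car1 had 1.82 on its brighter probe and −0.16 on the other, Hba-a1, Hbb-bs and Klf1 had −0.39, −0.76 and −0.44, and the median of these 4 measured markers was −0.41. Megakaryocyte markers summed to 2.87 on the DAC array against 1.81 on the PBS array, with 3 of 5 measured at least 2-fold higher. Of these 3, Pf4 had a difference of 1.04. Treml1 and Itga2b had PBS log2 signals of −4.75 and −4.43, near the lowest one well above background there, −4.93. B cell markers summed to 6.05 with DAC and 3.63 with PBS, with 1 of 4 at least 2-fold higher. Over all measured genes, 10.0% were higher by 2-fold or more and 6.84% lower by as much. The part of other cell types in the granule gene values was not tested.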

How the data were processed

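Total RNA from sorted LSK cells was labelled with Cy3 and read on 1 array per group. Scans were read with Agilent Feature Extraction 10.7.3.1 (protocol GE1_107_Sep09, probe positions on build mm9), per the file headers. The deposited processed intensity was background-subtracted and detrended by the scanner software and not normalized between arrays. The deposited series matrix gives log2 values whose columns each have a median of 0; the difference between its columns follows that of the log2 processed intensity with a slope of 1 and an offset of −0.60 over 25404 probes, so its scale and direction are settled, and its baseline is unknown.

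Intensities were put on the log2 scale, outlying spots were left out, and spots of a probe were averaged. The call of well above background had to hold for 50% of a probe's spots or more. Scaling subtracted each array's 75th percentile, taken over the 25404 probes (45.6%) that passed this call on DAC and PBS alike. The brightest probe stood for a gene. Names came from accessions (26761 probes), symbols (3819) and synonyms (639) of GRCm38.p6, used for names only, and 24461 probes kept the file's name. Promoter sequences are from RefSeq. Python 3.11.15 and limma 3.58.1 were used, and fold recovery was tested on simulated data.

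Members and lists were chosen with earlier results of these data known. Named were all members, list genes past 2-fold or with such a bound, and each list's brightest gene; Prg3, Siglecf, Ccr3 and the locus neighbours were added after their values were seen. Alternatives covered scaling, background, the filter on dim probes and several probes per gene. The number of arrays limits the precision.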

Additional observations from a re-analysis of the deposited data

How the results depend on the processing

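No paired analysis was possible because each group has 1 array, and no array could be left out. The counts of members at 2-fold, 3 higher and 4 lower, depended most on background: normexp correction and no background subtraction each gave 0 higher and 2 lower, and 3 wider list genes higher against 7. The first adds 50 and the second keeps the background, and either by itself makes log2 differences of dim probes smaller. Quantile normalization gave 1 member higher. The median of the measured members, −0.34, became −1.04 with no filter and with the looser filter of a positive and significant signal, both of which add Fcer1a, and no filter gave 14 wider list genes higher. Wider list genes at least 2-fold lower, 6 as reported, numbered 10 with scaling over all probes, median centring and the series matrix values. The median of all measured genes shifted by −0.20, −0.16 and −0.20 under these 3, and by −0.11 with quantile normalization. Of all genes past 2-fold, 59.4% were higher as reported, against 41.8% with scaling over all probes, 45.8% with median centring, 42.2% with quantile normalization, 49.2% with loess, 41.9% with the series matrix values, 48.9% with normexp correction and 49.4% with no background subtraction. Over all genes, normexp correction left 721 higher and 752 lower at 2-fold, and no background subtraction 717 and 735, against 1824 and 1245; no filter gave 5364 and 3038, and the looser filter 3665 and 2196. No member past 2-fold reversed its direction under these alternatives. Dim probes limit Epx, Hdc, Mcpt8 and Fcer1a, whose processed intensities on the dimmer array were 27.1, 32.2, 37.8 and 25.7.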
